A study of Mus musculus with 7 samples.

Results

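The 8 genes described here, *Dazl*, *Ddx4*, *Mael*, *Tex19.1*, *Slc25a31*, *Sycp1*, *Sycp3* and *Hormad1*, belong to the germline genes that promoter methylation keeps silent in somatic cells. They were found by symbol among the 29267 Ensembl genes of each deposited table, and all 8 were matched. RNA was measured in 7 libraries of mouse cells, with 1 library for each condition and no replicates. OG2 mouse embryonic fibroblasts, which carry an *Oct4*-promoter GFP reporter (GOF18ΔPE), were infected with retroviruses for *Oct4*, *Sox2*, *Klf4* and *c-Myc* and reprogrammed in mES medium (serum, LIF and vitamin C) or in 5C medium (DMEM/F12 with N2, bFGF, LIF, vitamin C and β-mercaptoethanol). On day 15 each culture was sorted on the reporter into a GFP+ and a GFP- fraction, called mES GFP+, mES GFP-, 5C GFP+ and 5C GFP- as in the labels, all at passage 0. 5C GFP+ cells were also cultured in naive medium (LIF, CHIR99021, PD0325901 and vitamin C) or in primed medium (bFGF and activin A, without vitamin C), giving 5C GFP+ (naive) and 5C GFP+ (primed) cells. The seventh library, R1 ESC (primed), came from R1 embryonic stem cells brought to the primed state on fibroblast feeder cells and then kept with CHIR99021 and IWR-1, and is of another origin than the OG2 cells. The labels give passage 20 for the last 3 libraries, so that medium and passage cannot be told apart where these are compared with the sorted cells. The study's own legends differ on this point, since one describes long passaging before RNA-Seq and another a culture of only a few days in naive or primed medium, so the length of culture behind the naive and primed values is uncertain. DNA methylation was not measured in these libraries.

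In the mouse, these genes are switched on as primordial germ cells lose DNA methylation, and they serve germ cell identity, meiosis and the defence against transposons. Their promoters are rich in CpG dinucleotides, and in fibroblasts and in the postimplantation epiblast they are held off by methylation and by repressor complexes that include E2F6 and the MGA-MAX pair. Naive embryonic stem cells have less methylated DNA than primed cells and are known to transcribe some germline genes.

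*Dazl* (ENSMUSG00000010592, chromosome 17, 50279395 to 50293636, minus strand) encodes an RNA-binding regulator of translation that germ cells require, and *Ddx4* (ENSMUSG00000021758, chromosome 13, 112598333 to 112652475, minus strand) encodes the Vasa RNA helicase of germ granules. *Mael* (ENSMUSG00000040629, chromosome 1, 166201201 to 166238747, minus strand) and *Tex19.1* (ENSMUSG00000039329, chromosome 11, 121146143 to 121148319, plus strand) act against retrotransposons, and *Mael* does so within the piRNA pathway. *Slc25a31* (ENSMUSG00000069041, chromosome 3, 40708855 to 40726096, plus strand) encodes the germ cell form of the mitochondrial ADP/ATP carrier. *Sycp1* (ENSMUSG00000027855, chromosome 3, 102818499 to 102936100, minus strand) and *Sycp3* (ENSMUSG00000020059, chromosome 10, 88459569 to 88473236, plus strand) encode the transverse filament and an axial element protein of the synaptonemal complex, which holds paired chromosomes together in meiosis. *Hormad1* (ENSMUSG00000028109, chromosome 3, 95559677 to 95587671, plus strand) encodes a protein of unsynapsed meiotic chromosome axes. Coordinates are those of the GENCODE M21 genes on GRCm38, the assembly that the submitters' notes call mm10.

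The promoters of 5 members, chosen after their values were seen, are printed. *Dazl* and *Hormad1* were lower by most in 5C GFP+ than in mES GFP+ cells. *Mael* and *Sycp3* had the highest ratios in that comparison, and *Tex19.1* held its level. Those of *Ddx4*, *Slc25a31* and *Sycp1* are not printed. Each sequence is the 250 bases before the RefSeq start site (GRCm38.p6), read 5′ to 3′ on the strand of the gene. Capitals mark CACGTG, the E-box letters that MGA-MAX can bind, and TCCCGC or its reverse complement GCGGGA, the core of the E2F motif.
Hormad1, chr3:95559427-95559676, plus strand: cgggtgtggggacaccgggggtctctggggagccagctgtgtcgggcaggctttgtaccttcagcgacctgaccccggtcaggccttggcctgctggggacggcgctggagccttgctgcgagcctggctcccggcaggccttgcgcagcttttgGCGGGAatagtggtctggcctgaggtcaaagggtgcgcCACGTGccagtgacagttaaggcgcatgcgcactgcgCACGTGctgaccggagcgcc
Sycp3, chr10:88459337-88459586, plus strand: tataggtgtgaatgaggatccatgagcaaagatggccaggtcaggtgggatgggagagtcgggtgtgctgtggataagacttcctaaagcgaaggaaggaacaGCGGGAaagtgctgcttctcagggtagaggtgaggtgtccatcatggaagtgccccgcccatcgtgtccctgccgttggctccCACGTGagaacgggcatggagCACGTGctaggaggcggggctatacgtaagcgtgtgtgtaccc
Mael, chr1:166238745-166238994, minus strand: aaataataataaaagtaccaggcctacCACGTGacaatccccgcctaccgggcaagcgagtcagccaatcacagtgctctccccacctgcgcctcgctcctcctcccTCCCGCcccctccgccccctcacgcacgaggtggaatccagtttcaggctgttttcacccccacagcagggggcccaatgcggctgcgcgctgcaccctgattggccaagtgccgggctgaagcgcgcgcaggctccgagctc
Tex19.1, chr11:121145893-121146142, plus strand: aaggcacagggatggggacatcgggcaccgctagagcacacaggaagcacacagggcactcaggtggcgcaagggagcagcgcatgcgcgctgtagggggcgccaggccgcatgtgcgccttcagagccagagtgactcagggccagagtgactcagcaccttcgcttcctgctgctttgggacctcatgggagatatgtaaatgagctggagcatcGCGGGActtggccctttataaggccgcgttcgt
Dazl, chr17:50293621-50293870, minus strand: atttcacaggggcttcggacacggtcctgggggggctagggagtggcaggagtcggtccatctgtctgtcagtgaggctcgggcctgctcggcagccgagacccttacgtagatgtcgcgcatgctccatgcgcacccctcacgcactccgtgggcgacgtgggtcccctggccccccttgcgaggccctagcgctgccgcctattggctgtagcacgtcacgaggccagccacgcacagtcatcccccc

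The E-box letters were present in the 300-base promoter windows (250 bases before and 50 from the start) of 6 of the 8 genes, and *Dazl* and *Tex19.1* held none. Over all RefSeq genes with a window, 8.09% of 27025 genes held this motif, and among 55 other germline genes with a window 29.1% did. The E2F letters were found in 7 of the 8, all except *Dazl*, against 22.05% of all genes and 45.5% of the other germline genes. Both strands were searched and the motifs share no base in these windows. *Hormad1* and *Sycp3* had 2 E-boxes each. Those of *Hormad1* began 57 and 20 bases before the start and those of *Sycp3* 64 and 43 bases before it. The 8 windows held between 15 (*Sycp3*) and 38 (*Ddx4*) CpG dinucleotides, whereas the median was 7 over all windows and 17 over those of the other germline genes. Of all windows 65.4% had fewer CpG than *Sycp3*, 67.0% fewer than *Tex19.1* and 95.05% fewer than *Ddx4*. *Dazl*, with neither motif, had 28. *Tex19.1* had 16 and the lowest ratio of observed to expected CpG among the 8, 0.575, where *Ddx4* had 0.978. A match describes the letters in the window only, and no binding was measured here.

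**Figure D1:**
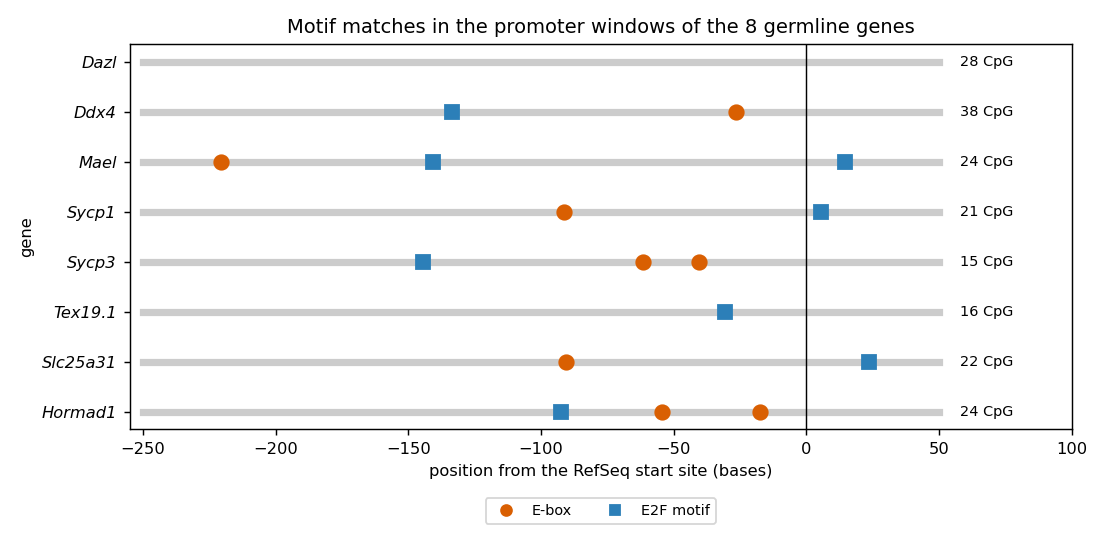
Matches to the E-box (circles) and the E2F motif (squares) in the promoter windows of the 8 germline genes, placed by distance in bases from the RefSeq start site, with the number of CpG dinucleotides of each window at the right. *Dazl* has no match, *Tex19.1* has an E2F match only, and the windows hold 15 to 38 CpG.

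Levels are given in TPM, the deposited length-scaled share of transcripts, which divides reads by transcript length, so that genes can be compared. The libraries held between 6108252 and 11496615 reads by RSEM's expected counts, and 1 read of a gene of median length was worth 0.0712 to 0.137 TPM. Because each condition had 1 library, no test was possible. A gene entered a comparison (a tested gene) only if it had at least 1 TPM in either library, and it was called higher or lower where log2(TPM + 1) differed by at least 1, that is 2-fold. Calls are thus made on the log2(TPM + 1) scale, which understates the change of low genes. Intervals are exact 95% intervals that cover counting error only, not the spread between cultures. A library at 0 gives only a lower bound on a fold, which is the lower limit of its interval. In these bulk samples, fewer cells that express a gene cannot be told apart from less RNA per cell.

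Of the 8 genes, all had at least 1 TPM in mES GFP+, 5C GFP+ and 5C GFP+ (naive) cells. In the other libraries 2 (mES GFP-, 5C GFP- and 5C GFP+ (primed)) or 3 (R1 ESC (primed)) reached it. Summed over the 8 genes, mES GFP+ cells held 416.5 TPM, 5C GFP+ (naive) cells 338.2 TPM and 5C GFP+ cells 186.6 TPM. The remaining sums were 10.7 TPM in R1 ESC (primed), 7.56 TPM in 5C GFP-, 4.67 TPM in mES GFP- and 3.60 TPM in 5C GFP+ (primed) cells. The 3 high libraries thus stood apart from the 4 low ones, and the 8 genes were not raised by the same factor within the high ones. *Dazl* made up 46.0% of the summed TPM in mES GFP+ cells and 39.9% in naive cells but 4.88% in 5C GFP+ cells. *Tex19.1* made up 23.3%, 37.3% and 67.8% of it in the same order.

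The libraries were checked against markers of other states. Of 8 pluripotency markers, 6 were higher in GFP+ than in GFP- cells in both media. Over all tested genes, 17.9% were higher in mES medium and 8.45% in 5C medium. *Nanog*, a pluripotency factor, was measured at 696.7 TPM in mES GFP+, 252.9 in 5C GFP+ and 734.8 in naive cells, and at 17.1 to 131.0 TPM in the other libraries. *Dppa5a*, an RNA-binding protein of pluripotent cells, had 3631 to 4714 TPM in these 3 libraries and 0.87 to 143.4 TPM in the others. *Pou5f1* (Oct4) went the other way in mES medium, with 1321 TPM in mES GFP+ and 3640 TPM in mES GFP- cells, where it was called lower in GFP+ cells. It had 1503 to 2429 TPM in the other 5 libraries. The retroviruses carried *Oct4* too, and the part of viral RNA in these values was not tested. *Zfp42*, a marker of naive cells chosen after its values were seen, was listed at 0 in 5C GFP+ (primed) cells and was at 6.02 TPM in R1 ESC (primed).

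Among the primed markers, *Otx2*, a transcription factor of the postimplantation epiblast, had 0.41 TPM in mES GFP+ and 1.15 in naive cells but 189.4 in 5C GFP+, 214.5 in 5C GFP+ (primed) and 134.4 in R1 ESC (primed) cells. *Fgf5*, a growth factor of the same stage, had 174.7 and 139.3 TPM in the 2 primed libraries and 11.7 TPM in 5C GFP+ cells. Of 8 fibroblast markers, all were at or above 1 TPM in both GFP- libraries and both primed libraries. Their summed level was 512.5 TPM in mES GFP-, 327.0 in 5C GFP-, 257.0 in R1 ESC (primed) and 85.2 in 5C GFP+ (primed) cells, against 14.5 to 15.7 TPM in the 3 libraries that expressed the germline genes. The collagen genes *Col1a1*, *Col3a1* and *Col1a2* led the list, at 159.6, 140.4 and 108.3 TPM in mES GFP- cells. The 4 libraries with low germline sums were thus those with more RNA of the fibroblast markers. The order did not hold within them, since 5C GFP+ (primed) cells had the least marker RNA of the 4 and the lowest germline sum. Which cells this marker RNA came from was not determined. Its part in the low germline levels was not tested.

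*Dazl* had 191.5 TPM in mES GFP+, 0.08 in mES GFP-, 9.10 in 5C GFP+, 0.24 in 5C GFP- and 135.0 in 5C GFP+ (naive) cells, and was listed at 0 in both primed libraries. It was thus high in mES GFP+ and naive cells, well below both in 5C GFP+ cells, and at or under 3 counts everywhere else. *Hormad1* had 98.4 TPM in mES GFP+, 0 in mES GFP-, 15.7 in 5C GFP+, 0.21 in 5C GFP-, 58.5 in naive, 0 in 5C GFP+ (primed) and 0.19 in R1 ESC (primed) cells. Its order was that of *Dazl* over the 3 high libraries, and the 4 low libraries had 1 count at most. Both genes are in the list of naive-state markers that the study chose on these samples, so their order is not independent of that choice.

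*Tex19.1* had 97.1 TPM in mES GFP+, 1.90 in mES GFP-, 126.4 in 5C GFP+, 4.61 in 5C GFP-, 126.2 in naive, 2 in 5C GFP+ (primed) and 5.44 in R1 ESC (primed) cells. Its 3 high libraries lay within 1.30-fold of one another, and it kept 10 counts or more in every library, as did only *Sycp1* among the others. *Mael* had 3.06 TPM in mES GFP+, 0.15 in mES GFP-, 12.7 in 5C GFP+, 0 in 5C GFP-, 2.77 in naive, 0 in 5C GFP+ (primed) and 0.35 in R1 ESC (primed) cells. *Sycp3* had 7.29, 0.43, 13.4, 0.66, 5.35, 0 and 0.96 TPM in the same order of libraries. For these 2 genes the highest library was 5C GFP+, and mES GFP+ and naive cells did not differ beyond counting error. *Sycp3* shares 660 of its 1264 exonic bases with *Chpt1*, an enzyme gene of phospholipid synthesis on the opposite strand that is named here because of this overlap, and the library kit does not keep strand. *Chpt1* was lower in 5C GFP+ than in mES GFP+ cells (11.6 against 36.5 TPM), the opposite order to *Sycp3*.

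*Ddx4* had 8.22 TPM in mES GFP+, 0.34 in mES GFP-, 5.43 in 5C GFP+, 0.52 in 5C GFP-, 3.97 in naive, 0.23 in 5C GFP+ (primed) and 1.54 in R1 ESC (primed) cells. *Slc25a31* had 6.19, 0.15, 2.14, 0, 3, 0 and 0.17 TPM in that order. In both, the 3 high libraries were above the other 4, and naive and 5C GFP+ cells did not differ beyond counting error. *Sycp1* was the exception among the 8. It had 4.82 TPM in mES GFP+, 1.62 in mES GFP-, 1.72 in 5C GFP+, 1.32 in 5C GFP-, 3.40 in naive, 1.37 in 5C GFP+ (primed) and 2.09 in R1 ESC (primed) cells, so it was detected in every library with 19 counts or more. The ranges of the high and low libraries overlapped for *Sycp1*, since R1 ESC (primed) lay above 5C GFP+ cells.

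**Figure D2:**
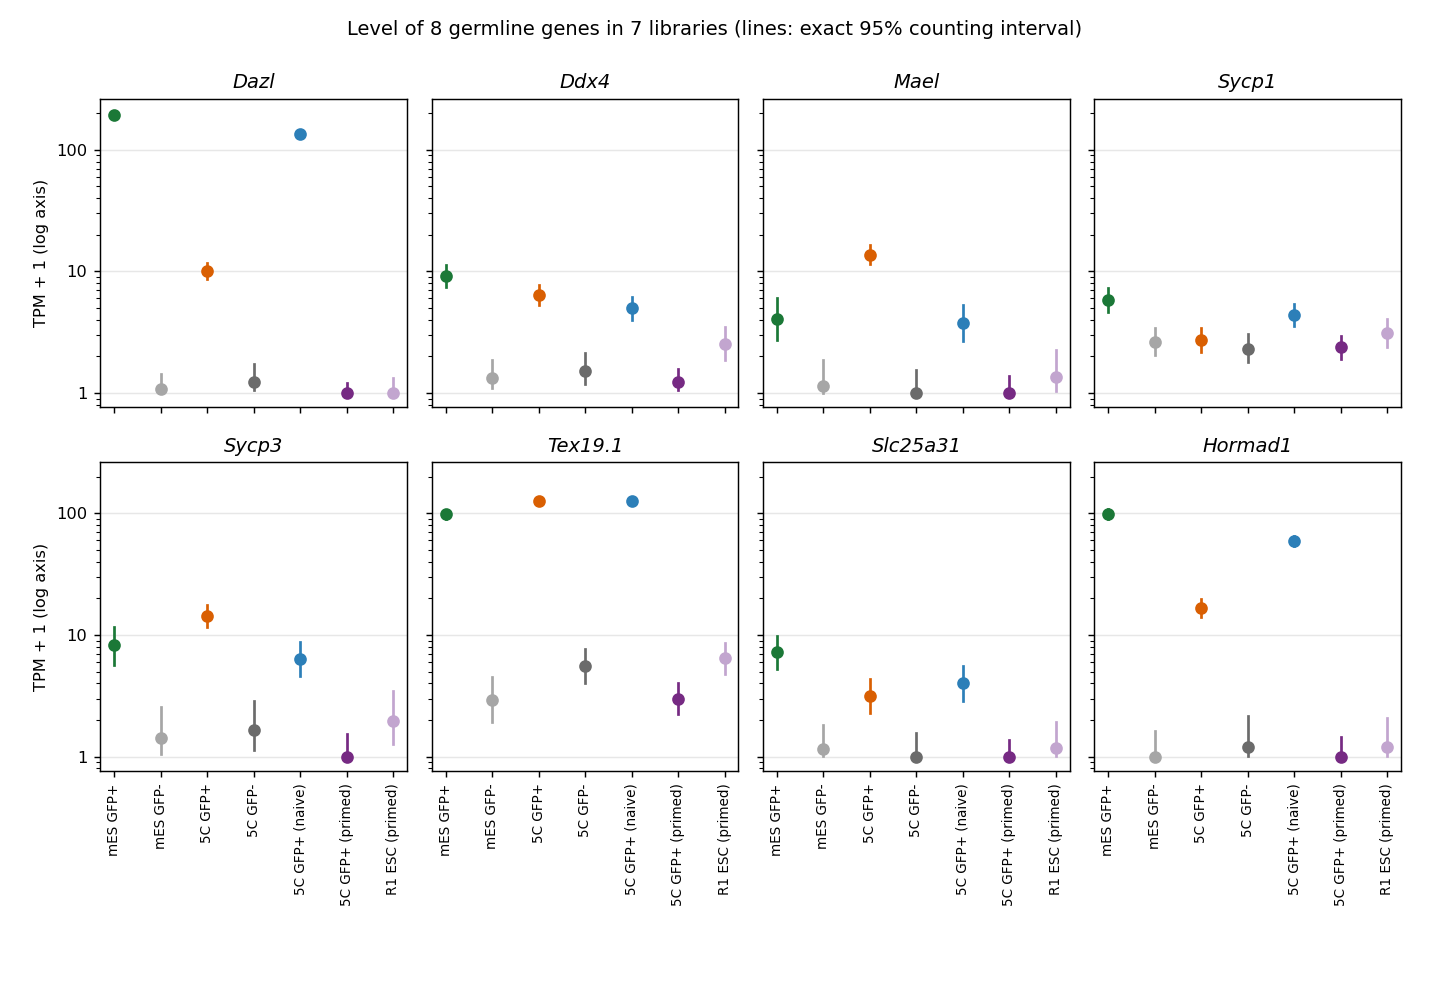
TPM + 1 on a log axis for each of the 8 germline genes in the 7 libraries, 1 point per library, with the exact 95% counting interval as a line. In 7 of the genes the points of mES GFP+, 5C GFP+ and 5C GFP+ (naive) lie above the other 4, and *Sycp1* stays between 1.32 and 4.82 TPM.

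The sort on the reporter separated the germline genes in both media. In mES medium all 8 were higher in GFP+ than in GFP- cells, whereas 17.9% of 16294 tested genes were higher and 28.8% lower. The median difference was 2.71 on the log2(TPM + 1) scale, against -0.15 over all tested genes. *Dazl* was 2393-fold higher on 1829 against 1 count (95% interval 434.4 to 95778), and *Hormad1* was at least 154.8-fold higher. *Tex19.1* was 51.1-fold higher (27.6 to 107.4), *Ddx4* 24.2-fold (9.17 to 92.1) and *Sycp1* 2.98-fold (1.81 to 5.04). In 5C medium 7 of the 8 were higher in GFP+ than in GFP- cells, against 8.45% of 15675 tested genes higher and 22.6% lower. The median difference was 3.07, against -0.25 over all tested genes. *Hormad1* was 74.6-fold higher on 119 against 1 count (13.2 to 2990), *Dazl* 37.9-fold (12.5 to 182.1) and *Tex19.1* 27.4-fold (18.8 to 41.8). *Mael* was at least 22.4-fold higher. *Sycp1* was not called, with a ratio of 1.30 (0.717 to 2.42).

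Between the GFP- fractions of the 2 media, none of the 8 genes was called, in a comparison where 9.68% of 15859 tested genes were higher in 5C GFP- and 10.1% lower. Only *Tex19.1* and *Sycp1* reached 1 TPM in either library and could be called. *Tex19.1* was 2.43-fold higher in 5C GFP- cells on 27 against 10 counts (1.14 to 5.63), just under the 2-fold threshold on the log2(TPM + 1) scale. *Sycp1* had a ratio of 0.815 (0.424 to 1.56). *Ddx4* had 6 against 4 counts. For the other 5 both libraries were at or under 3 counts, so a difference was not detectable at this depth.

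Between the GFP+ fractions, the 8 genes divided. *Dazl*, *Hormad1*, *Slc25a31* and *Sycp1* were lower in 5C GFP+ than in mES GFP+ cells, *Mael* was higher, and 3 were not called. Over all 15196 tested genes 13.7% were higher and 13.5% lower. *Dazl* was 21.0-fold lower (17.8 to 25.04) on 149 against 1829 counts. *Hormad1* was 6.28-fold lower (5.12 to 7.75), *Slc25a31* 2.89-fold (1.59 to 5.39) and *Sycp1* 2.80-fold (1.79 to 4.47). On log2(FPKM + 1) in place of log2(TPM + 1), *Sycp1* had a difference of -0.90, under the threshold, which left 3 lower. Its FPKM were 0.94 in 5C GFP+ and 2.63 in mES GFP+ cells. *Mael* was 4.16-fold higher (2.41 to 7.69) on 107 against 15 counts. *Sycp3* had a ratio of 1.83 (1.18 to 3.01), *Tex19.1* of 1.30 (1.17 to 1.45) and *Ddx4* of 0.661 (0.479 to 0.911), all under the threshold but with intervals that left out 1. The median difference of the 8 was -0.81, against -0.06 over all tested genes. Both promoter motifs were present in *Mael* and *Sycp3*, the 2 members with the highest ratios, in *Hormad1*, *Slc25a31* and *Sycp1*, which were lower, and in *Ddx4*, which was not called.

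After culture of 5C GFP+ cells in naive medium, the members that were called lay nearer to their mES GFP+ levels. *Ddx4*, not called, did not, with 8.22 TPM in mES GFP+, 5.43 in 5C GFP+ and 3.97 in naive cells. *Dazl* was 14.8-fold higher in naive than in 5C GFP+ cells (12.6 to 17.7) and *Hormad1* 3.74-fold higher (3.03 to 4.63). *Mael* was 4.596-fold lower (2.83 to 7.82) and *Sycp3* 2.50-fold lower (1.59 to 3.94). The other 4 were not called, with *Tex19.1* at a ratio of 0.998 (0.915 to 1.09). *Sycp1* had a ratio of 1.98 (1.26 to 3.15) but a difference of only 0.69 on the log2(TPM + 1) scale. Of 14863 tested genes 10% were higher and 17.5% lower, and the median difference was 0.17 for the 8 and -0.10 for all. This comparison shares the 5C GFP+ library with the one above, so that the 2 are not independent.

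Against mES GFP+ cells, naive cells had none of the 8 called in either direction, where 2.49% of 14477 tested genes were higher and 6.27% lower. The ratios ran from 0.483 for *Ddx4* (0.332 to 0.695) to 1.30 for *Tex19.1* (1.17 to 1.45). *Dazl* was at 0.705 (0.661 to 0.753) and *Hormad1* at 0.595 (0.516 to 0.684), so that both were lower by more than counting error while under 2-fold. The median difference was -0.45, against -0.16 over all tested genes. With a pseudocount of 0.1 in place of 1, *Ddx4* and *Slc25a31* passed 2-fold here, with ratios of 0.483 and 0.485 in TPM.

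**Figure D3:**
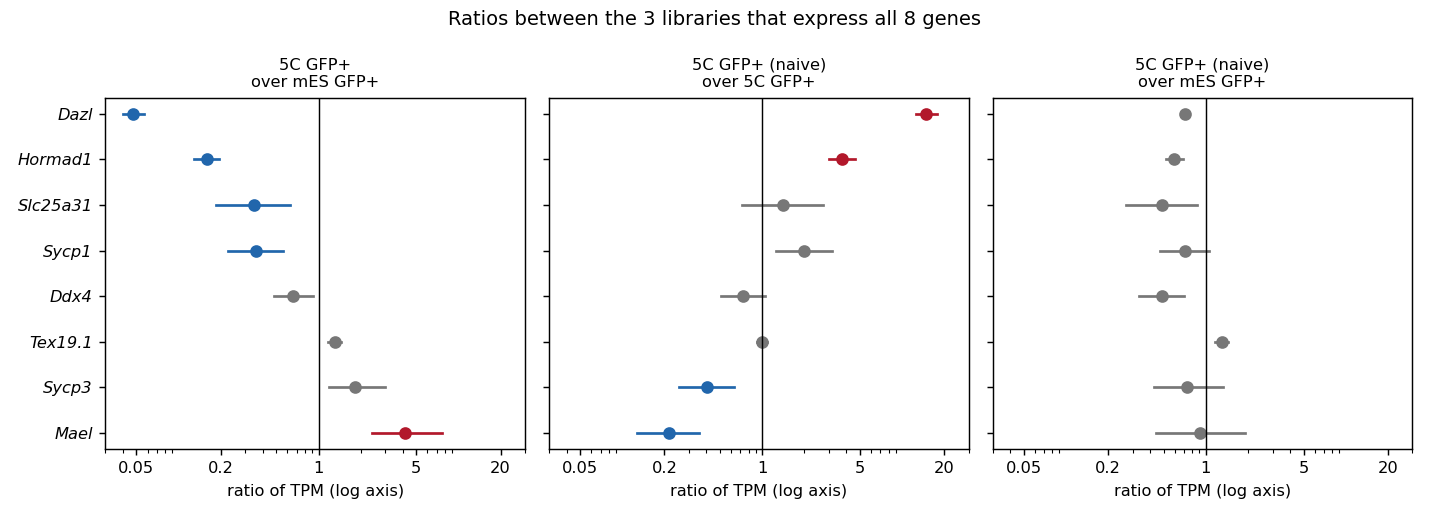
Ratios of TPM on a log axis with exact 95% counting intervals for the 8 germline genes in 3 comparisons, coloured red where the gene was called higher, blue where lower and grey where not called. *Dazl* and *Hormad1* lie at 0.048 and 0.159 in 5C GFP+ over mES GFP+ and at 14.8 and 3.74 in naive over 5C GFP+, while *Mael* lies at 4.16 and 0.218.

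In primed medium 7 of the 8 genes were lower than in 5C GFP+ cells, against 16.1% of 15067 tested genes lower and 13.7% higher. Of these, 5 were listed at 0 in primed cells. *Dazl* was at least 44.0-fold lower, *Hormad1* at least 34.8-fold, *Mael* at least 33.0-fold, *Sycp3* at least 24.1-fold and *Slc25a31* at least 5.14-fold. *Tex19.1* was 63.2-fold lower (41.2 to 102.7) on 21 against 1147 counts and *Ddx4* 23.6-fold lower (8.93 to 88.9). *Mael* and *Sycp3*, which were highest in 5C GFP+ cells, were thus without a read in primed cells like *Dazl*. *Sycp1* was not called, at a ratio of 0.797 (0.467 to 1.36). The median difference was -3.56, against 0.06 over all tested genes.

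Between naive and primed cells derived from the same 5C GFP+ cells, 7 of the 8 were higher in naive cells, against 16.7% of 15249 tested genes higher and 22.2% lower. *Dazl* was at least 660.1-fold higher, *Hormad1* at least 131.2-fold, *Tex19.1* 63.1-fold (41.1 to 103) and *Ddx4* 17.3-fold (6.37 to 65.9). The median difference was 2.34, against -0.14 over all tested genes. *Sycp1*, at a ratio of 2.48 (1.55 to 4.04) and a difference of 0.89 on the log2(TPM + 1) scale, was not called. It did pass 2-fold with a pseudocount of 0.1 (1.25), after rescaling by median ratio (1.03) and in counts scaled to library totals with no length (1.10).

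The primed cells derived from 5C GFP+ cells were compared with R1 ESC (primed), whose primed state was induced from embryonic stem cells. *Ddx4* was 6.70-fold lower (2.17 to 27.7) on 4 against 16 counts and *Tex19.1* 2.72-fold lower (1.54 to 4.93) on 21 against 35 counts. Over all 14600 tested genes 2.30% were higher and 5.09% lower, and the median difference was -0.41 for the 8 and -0.03 for all. Of the 8 genes, 3 reached 1 TPM in either library. *Sycp3*, with 0 against 3.93 estimated counts, was at least 1.09-fold lower but under 1 TPM in both, and 4 genes were at or under 3 counts in both. On log2(FPKM + 1) in place of log2(TPM + 1), neither *Ddx4* nor *Tex19.1* reached the threshold of 1. The FPKM themselves were 0.13 against 0.83 for *Ddx4* and 1.09 against 2.91 for *Tex19.1*, so the fold did not vanish in that unit. The summed fibroblast markers also differed between these libraries, 85.2 against 257.0 TPM, and their part in the difference was not tested.

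Other genes of the germline programme were counted in lists of 29 meiosis genes, 23 piRNA pathway and germ granule genes and 13 other testis and germline transcripts. Counts below are for these 65 genes together, and genes are named in this paragraph because few made up the count, after their values were seen. In mES GFP+ against mES GFP- cells 38 of 52 tested genes were higher and 4 lower (*Msh5*, *Terb1*, *Tdrd7* and *Tdrkh*), with a median difference of 1.51 on the log2(TPM + 1) scale over the 65. In 5C GFP+ against 5C GFP- cells 29 of 43 were higher and 4 lower (*Prdm9*, *Tdrd7*, *Tdrkh* and *Ddx25*), with a median of 0.55. Over all tested genes 17.9% were higher and 28.8% lower in mES medium, and 8.45% and 22.6% in 5C medium. The genes that went against the rest thus included 2 Tudor domain genes, *Tdrd7* and *Tdrkh*, in both media.

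Between the GFP+ fractions of the 2 media, 5 of 54 tested genes were higher in 5C (*Syce3*, *Dmc1*, *Msh5*, *Piwil2* and *Tdrd5*) and 19 lower, with a median of -0.30. The 5 are 9.26%, under the 13.7% of all tested genes that were higher. The 19 are 35.2%, above the 13.5% of all tested genes that were lower. By list, 3 meiosis genes were higher and 5 lower, 2 piRNA pathway and germ granule genes were higher and 7 lower, and 0 testis and germline transcripts were higher and 7 lower. Between the GFP- fractions 4 of 22 were higher in 5C and 1 lower (*Rec8*), with a median of 0. These are 18.2% and 4.55%, against 9.68% and 10.1% of all tested genes. In naive against 5C GFP+ cells 14 of 51 were higher and 7 lower, with a median of 0. In primed against 5C GFP+ cells 5 of 43 were higher (*Spo11*, *Prdm9*, *Tdrkh*, *Ddx25* and *Boll*) and 30 lower, with a median of -0.86. As shares, 11.6% were higher and 69.8% lower, against 13.7% and 16.1% of all tested genes. In naive against primed cells 35 of 49 were higher and 2 lower (*Tdrkh* and *Ddx25*), with a median of 1.09. The shares were 71.4% and 4.08%, against 16.7% and 22.2% of all tested genes. In naive against mES GFP+ cells 1 of 52 was higher (*Gtsf1*) and 7 were lower, with a median of -0.28. The 7 are 13.5% of the tested germline genes, above the 6.27% of all tested genes that were lower in this comparison. Between the primed libraries 0 of 24 were higher in 5C GFP+ (primed) cells and 7 were lower (29.2%, against 5.09% of all tested genes), with a median of -0.18.

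*Stra8*, the inducer of meiotic entry, had the highest level of any gene of these lists in mES GFP+ cells, 306.2 TPM. It was listed at 0 in 5C GFP+ cells, at least 679.9-fold lower. Unlike *Dazl*, it stayed low in naive cells, at 4.67 TPM. *Rec8*, the meiotic cohesin subunit, likewise had 94.99 TPM in mES GFP+, 23.8 in 5C GFP+ and 24.6 in naive cells, and was also present in mES GFP- cells (39.3 TPM).

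*Fkbp6*, *Stk31* and *Rnf17*, of the piRNA pathway or germ granules, followed the order of *Dazl*. *Fkbp6* had 128.2 TPM in mES GFP+, 3.18 in 5C GFP+ and 85.4 in naive cells, *Stk31* 64.6, 3.76 and 52.5, and *Rnf17* 53.1, 4.73 and 33.4. In naive over 5C GFP+ cells *Fkbp6* had a ratio of 26.9 (17.8 to 42.3), *Stk31* of 14.0 (10.6 to 18.8) and *Rnf17* of 7.06 (5.88 to 8.52). *Syce1*, a central element protein of the synaptonemal complex (25.7, 3.53 and 18.8 TPM), and *Tex101*, a germ cell surface protein (24.5, 0.18 and 17.5 TPM), did so too. The tubulin genes *Tuba3a* (175.6, 24.4 and 171.6 TPM) and *Tuba3b* (10.5, 0.43 and 13.8 TPM) are near-identical copies, so the split of reads between them is uncertain. *Tdrd12*, a Tudor domain helicase of the piRNA pathway, was lower in 5C GFP+ cells by less (109.6, 33.9 and 110.7 TPM).

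Other genes were not called between the GFP+ fractions, like *Tex19.1*. *Rec114*, which promotes meiotic DNA breaks, had 38.2 TPM in mES GFP+, 57.5 in 5C GFP+ and 37.3 in naive cells. *Hsf2bp*, a meiotic recombination protein, had 74.0, 47.8 and 86.3 TPM, and *Syce2*, another central element protein, 77.1, 95.1 and 60.8 TPM. *Syce2* was also present in all 4 low libraries, at 26.3 to 66.9 TPM. *Tex14*, of germ cell bridges, had 18.7, 17.1 and 4.91 TPM, lower in naive cells like *Mael*. *Piwil2*, a PIWI protein chosen after its values were seen, as 1 of the 5 genes called higher, was 2.23-fold higher in 5C GFP+ than in mES GFP+ cells (1.87 to 2.66) and 3.68-fold lower in naive than in 5C GFP+ cells (3.06 to 4.45).

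The spread within the programme was described by the difference from mES GFP+ cells on the log2(TPM + 1) scale, with no limit on the level, for the 8 members and the 65 other germline genes. In 5C GFP+ cells the members lay between -4.25 (*Dazl*) and 1.76 (*Mael*) and the others between -8.26 (*Stra8*) and 3.002 (*Syce3*, a central element protein of the synaptonemal complex that had 0 TPM in mES GFP+ and 7.01 TPM in 5C GFP+ cells). In naive cells the members lay between -0.89 (*Ddx4*) and 0.37 (*Tex19.1*) and the others between -5.76 (*Stra8*) and 1.04 (*Gtsf1*, a piRNA pathway protein). Both differences use the same mES GFP+ library.

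**Figure D4:**
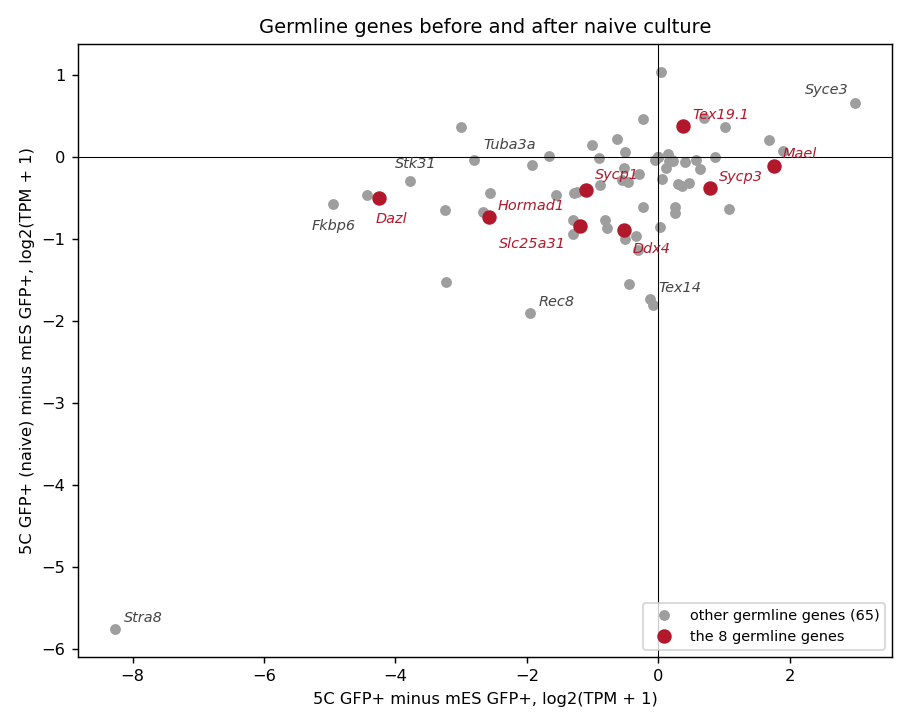
Difference of log2(TPM + 1) from mES GFP+ cells in 5C GFP+ (x) and in 5C GFP+ (naive) cells (y), 1 point for each of the 8 germline genes (red) and of 65 other germline genes (grey). The 8 run from -4.25 to 1.76 along x and from -0.89 to 0.37 along y, and *Stra8* is low on both.

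Paralogs with somatic roles did not follow their germline relatives. *Slc25a4* and *Slc25a5*, the ADP/ATP carriers of muscle and of proliferating cells, had 81.5 to 310.3 TPM and 529.1 to 1228 TPM over the 7 libraries, with *Slc25a4* highest in mES GFP- cells, where *Slc25a31* had 1 count. *Ddx3x*, a ubiquitous DEAD-box helicase, had 245.3 to 525.4 TPM and was highest in R1 ESC (primed). *Hormad2* and *Tex19.2*, which are themselves germline genes, were on in the 3 high libraries. *Hormad2* had 30.3 TPM in mES GFP+, 32.9 in 5C GFP+ and 27.6 in naive cells, and 0.31 to 1.05 TPM elsewhere, so it did not show the lower 5C level of *Hormad1*. *Tex19.2* had 4.42, 6.22 and 4.18 TPM, and reads could be divided between it and *Tex19.1* by the authors' estimation. *Boll*, a relative of *Dazl*, had 4.23 TPM in mES GFP+, 0.38 in 5C GFP+ and 3.87 in naive cells and, unlike *Dazl*, 2.11 TPM in 5C GFP+ (primed) and 6.99 TPM in R1 ESC (primed) cells.

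Of 8 primordial germ cell regulators, none was higher and 6 were lower in 5C GFP+ than in mES GFP+ cells. The 6 are 75%, where 13.5% of all tested genes were lower and 13.7% higher. In naive against 5C GFP+ cells 3 were higher and 1 lower (*Dnd1*, named for this count). These are 37.5% and 12.5%, against 10% and 17.5% of all tested genes, so the share that was lower was under that of all genes. *Dppa3*, which protects DNA from active demethylation in the zygote and limits UHRF1, had 493.8 TPM in mES GFP+, 71.2 in 5C GFP+ and 388.5 in naive cells. *Nanos3*, a germ cell survival factor, had 31.6, 1.07 and 18.0 TPM, and *Kit*, a receptor that migrating germ cells need, 121.5, 5.08 and 89.6 TPM. *Prdm14* (51.2, 20.5 and 34.9 TPM) and *Tfap2c* (86.9, 29.4 and 58.4 TPM), transcription factors of germ cell specification, were lower in 5C by less.

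The genes for writing and removing DNA methylation differed between the same libraries. *Dnmt3l*, the cofactor of the de novo methyltransferases, had 5.31 TPM in mES GFP+, 1.31 in mES GFP-, 525.3 in 5C GFP+, 1.04 in 5C GFP-, 20.2 in naive, 0.47 in 5C GFP+ (primed) and 16.0 in R1 ESC (primed) cells. It was 98.9-fold higher in 5C GFP+ than in mES GFP+ cells (68.4 to 149.1). *Dnmt3b* had 85.8, 49.4, 366.4, 103.9, 114.9, 843.9 and 822.5 TPM in that order, and *Dnmt3a* 19.19, 31.6, 97.1, 42.9, 12.9, 82.8 and 135.6 TPM. Both de novo methyltransferases were thus lower in mES GFP+ and naive cells, where *Dazl* was high, than in 5C GFP+ cells and both primed libraries. The GFP- libraries, with *Dazl* at or under 3 counts, did not share this order for *Dnmt3b*. There *Dnmt3b* had 49.4 TPM (mES GFP-, below mES GFP+) and 103.9 TPM (5C GFP-, below naive). *Dnmt3a*, at 31.6 and 42.9 TPM, was above mES GFP+ and naive cells. The order of *Dazl* was not that of all members. *Mael* and *Sycp3* were highest in 5C GFP+ cells, at 12.7 and 13.4 TPM, and *Tex19.1* held its level there. *Hormad1*, *Slc25a31* and *Sycp1* were called lower in 5C GFP+ than in mES GFP+ cells, as *Dazl* was, and *Ddx4* was not called. *Dnmt3b* was 4.27-fold higher (4.01 to 4.55) and *Dnmt3a* 5.06-fold higher (4.48 to 5.72) in 5C GFP+ than in mES GFP+ cells. The maintenance pair was on in all libraries, *Dnmt1* at 62.2 to 160.5 TPM and *Uhrf1* at 77.6 to 356.6 TPM.

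Among the demethylating enzymes, *Tet1* had 51.8 TPM in mES GFP+, 131.6 in 5C GFP+ and 43.1 in naive cells, and 4.43 to 30.2 TPM in the other libraries. *Tet1* was therefore above every low library in the 3 libraries that expressed the germline genes. *Tet2* was at 21.4 TPM in mES GFP+, 15.4 to 15.9 TPM in the other sorted fractions, 7.44 TPM in naive cells, 1.59 TPM in 5C GFP+ (primed) and 2.88 TPM in R1 ESC (primed) cells. *Tet3* had the opposite order, with 1.15 to 4.95 TPM in the 3 libraries that expressed the germline genes and 9.95 to 20.1 TPM in the other 4. Of the 8 genes of this list, 4 were higher and none lower in 5C GFP+ than in mES GFP+ cells. The 4 are 50%, where 13.7% of all tested genes were higher and 13.5% lower. In naive against 5C GFP+ cells 5 were lower and none higher. The 5 are 62.5%, where 17.5% of all tested genes were lower and 10% higher. Whether these RNA levels bear on the germline genes was not tested.

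**Figure D5:**
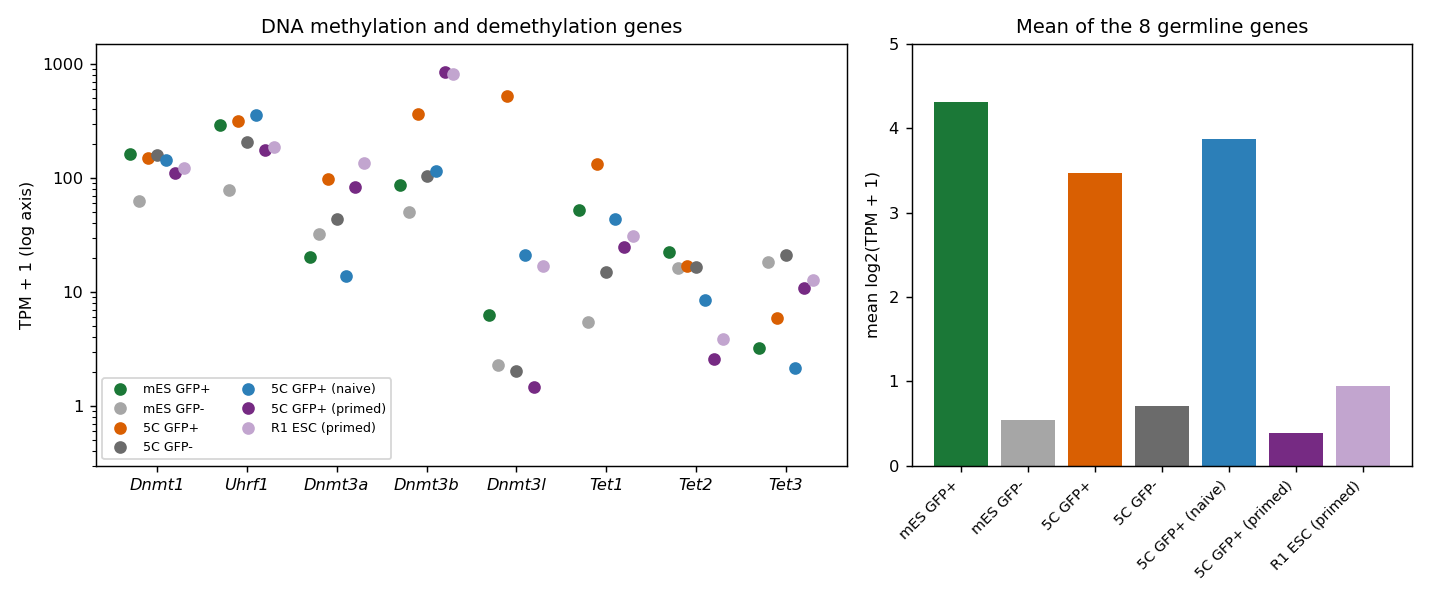
Left, TPM + 1 on a log axis for 8 DNA methylation and demethylation genes, 1 point per library. Right, the mean of log2(TPM + 1) over the 8 germline genes in each library, as bars from 0. *Dnmt3l* stands at 525.3 TPM in 5C GFP+ cells and at 0.47 to 20.2 TPM elsewhere, and the germline mean is 4.31, 3.47 and 3.88 in mES GFP+, 5C GFP+ and naive cells and 0.39 to 0.94 elsewhere.

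The known repressors of germline genes were expressed in every library. All 16 genes of the list, which holds subunits of the PRC1.6 complex, the SETDB1 and G9a methyltransferases and E2F6, had at least 1 TPM throughout. In 5C GFP+ against mES GFP+ cells 1 was higher (*Ring1*) and 1 lower (*Yaf2*), with a median difference of 0.16, and in naive against 5C GFP+ cells 0 were higher and 2 lower (*Ring1* and *Ehmt1*), with a median of -0.11. The first counts are 6.25% each way, against 13.7% of all tested genes higher and 13.5% lower. The 2 lower in the second are 12.5%, against 17.5% of all tested genes. *Ring1*, a ubiquitin ligase subunit of PRC1, had 6.26 TPM in mES GFP+, 25.5 in mES GFP-, 17.0 in 5C GFP+, 33.3 in 5C GFP-, 7.52 in naive, 17.7 in 5C GFP+ (primed) and 14.6 in R1 ESC (primed) cells. *Yaf2*, another subunit, had 12.1, 29.1, 5.17, 30.5, 9.71, 35.6 and 39.9 TPM, lower in the 3 libraries that expressed the germline genes than in the other 4. The most abundant members, *Cbx3* (167.4 to 331.6 TPM), *Tfdp1* (153.8 to 285.6 TPM) and *Ehmt2* (112.1 to 190.8 TPM), were called in none of the 9 comparisons.

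The genes most like the 8 in their pattern were ranked by the correlation of log2(TPM + 1) with the mean of the 8 over the 7 libraries, among 13567 genes with at least 5 TPM in some library. The points are the 7 libraries, and the correlations are a description. The 10 highest were *Gm15446* (r = 0.998), *Triml1*, *D1Pas1*, *Wbp2nl*, *Ephx2*, *Zfp936*, *4930544I03Rik*, *Wapl*, *2410018L13Rik* and *Mageb16* (r = 0.994). *D1Pas1*, a testis DEAD-box helicase that is a close copy of *Ddx3x* (so that the split of reads is uncertain) and the one gene of the germline lists among them, had 30.5 TPM in mES GFP+, 12.4 in 5C GFP+ and 22.4 in naive cells and 0 to 0.25 TPM elsewhere. *Wapl*, the cohesin release factor, followed the pattern without being silent in any library, with 90.3 to 113.2 TPM in the low libraries and 410.0 to 689.9 TPM in the high ones. *Ephx2*, an epoxide hydrolase, had 178.7, 89.1 and 93.6 TPM in mES GFP+, 5C GFP+ and naive cells and 1.5 to 2.91 TPM elsewhere.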

How the data were processed

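RNA was sequenced by the authors from TruSeq v2 libraries on a MiSeq and quantified with RSEM (with Bowtie and mm10, per the submitters' notes; versions are not given in the sources used here). Each deposited table held, per Ensembl gene, expected counts (RSEM's estimated number of reads, not normalized), TPM as the authors computed it with RSEM (count over effective length, scaled to a fixed sum) and FPKM as deposited (count over effective length and depth). RSEM shares out reads that fit several transcripts, which can move reads between paralogs.

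TPM was used here for levels, expected counts for intervals (rounded to whole numbers) and FPKM as an alternative, with Python 3.11.15, pandas 2.3.3 and scipy 1.17.1. Gene symbols matched 28756 of 29267 genes. A difference is that of log2(TPM + 1), and a call needed 1 TPM in either library and 2-fold. No replicates exist, so no p-value is given. Intervals of ratios are exact (Clopper-Pearson on the counts of both libraries). The script was tested on simulated data. The 9 comparisons share libraries and are not independent. The members, lists and comparisons were chosen with earlier results of these data known. Named were the 8 members, their paralogs, the methylation genes, the 3 most abundant genes of every other list, up to 5 per germline or repressor list called in at least 4 comparisons, and the 10 most alike. Other genes were named after their values were seen. Of 131 listed symbols 2 were not found. Depth was 6108252 to 11496615 counts per library.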

Additional observations from a re-analysis of the deposited data

How the results depend on the processing

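No paired analysis was possible because each group has 1 library, and for the same reason no replicate was left out. No called direction turned under the alternatives tried. Rescaling by median ratio, which shifts libraries by up to 0.35 on the log2 scale, and dropping the minimum TPM left all counts of the members and of the other germline genes within 1.5 times. Fewer counts under a 4-fold threshold or a minimum of 5 TPM follow from their construction. For the other shifts the cause was not tested.

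With a 4-fold threshold, the members called in 5C GFP+ against mES GFP+ cells were 0 higher and 2 lower, in naive against 5C GFP+ cells 1 higher and 0 lower, and in 5C GFP+ (primed) against R1 ESC (primed) cells 0 lower. For the other germline genes it left 1 lower in the mES sort and 19 higher and 1 lower in the 5C sort. It left 1 higher and 10 lower between the GFP+ fractions, 0 and 0 between the GFP- fractions, and 8 higher and 1 lower in naive against 5C GFP+ cells. It left 1 higher in primed against 5C GFP+ cells, 22 higher and 1 lower in naive against primed cells, 0 higher and 1 lower in naive against mES GFP+ cells, and 1 lower between the primed libraries.

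With a minimum of 5 TPM, 4 members were higher in naive against primed cells and 1 was lower between the primed libraries. For the other germline genes this minimum left 2 lower in the mES sort, 16 higher in the 5C sort, 8 higher in naive against 5C GFP+ cells, 2 higher and 19 lower in primed against 5C GFP+ cells, 20 higher in naive against primed cells and 2 lower between the primed libraries.

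With a pseudocount of 0.1, 1 member was higher between the GFP- fractions and 2 were lower in naive against mES GFP+ cells. The median difference of the members was then -6.22 in primed against 5C GFP+ cells, 5.36 in naive against primed cells and -1.48 between the primed libraries. Of the other germline genes 2 were lower between the GFP- fractions, 12 lower in naive against 5C GFP+ cells, 4 lower in naive against primed cells, 13 lower in naive against mES GFP+ cells and 11 lower between the primed libraries.

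In FPKM, 0 members were lower between the primed libraries, the members' median difference in primed against 5C GFP+ cells was -2.79, and of the other germline genes 2 were lower in the mES sort and 2 higher in primed against 5C GFP+ cells. In expected counts scaled to library totals, with no length, 0 of the other germline genes were higher in naive against mES GFP+ cells. Differences of single members stayed within the typical counting error of their comparison in 259 cases and moved by more in 29, 23 of them with the pseudocount of 0.1. Genes at or under 3 counts limit the comparisons among the low libraries.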
